A study of Rattus norvegicus with 9 samples.

Results

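The outer layer and the middle layer of the rat left ventricle were compared by small RNA sequencing, with 3 mid-myocardium libraries set against 3 epicardium libraries out of the 9 libraries of the study. The rats were male Sprague-Dawley animals aged 8 months, and the labels name no treatment or allele for either group. Each of hearts 6, 7 and 8 gave 1 library per layer, so the layers were paired by heart. The layers were cut at about a millimetre below the outer and inner surfaces of the free wall, so the epicardium here is a slab of outer ventricular wall with the heart surface on it, and each library holds every cell type of its slab. The 6 libraries were chosen by their labels. All sequences given to 1 miRNA entry were added up by species, name and arm, and 435 of 2182 such entries reached 10 reads in 1 or more of these libraries. Of these 435 entries, 277 were rat entries and 158 were entries that the deposited annotation gives to other species. An entry name with * is the arm of the hairpin that miRBase first recorded as the minor strand, which need not be the less abundant arm here.

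MiRNAs are short RNAs cut from hairpin precursors. A miRNA guides a silencing complex to messenger RNAs mainly through its seed, the bases 2 to 8 from its 5′ end, and a seed shared between miRNAs gives them overlapping targets. Many miRNA genes lie close together and are cut from the same transcript, as in the imprinted Dlk1-Dio3 region and in the small groups that join miR-99 or miR-100 with let-7 and miR-125. MiR-10a and miR-10b lie within Hox gene clusters, which carry positional identity in the embryo. In the heart, miR-1, miR-133a, miR-208 and miR-499 are known as miRNAs of muscle cells.

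Levels are given as RPMM, the reads of an entry per 1000000 annotated reads of its library. Annotated reads numbered 770583 to 939580 in epicardium and 283991 to 1052663 in mid-myocardium, with the lowest total in mid-myocardium of heart 6. A count of 3 reads corresponded to 3.19 to 3.89 RPMM in epicardium and to 2.85 to 10.6 RPMM in mid-myocardium. Muscle miRNAs were abundant in both layers, with miR-133a between 46623 and 130151 RPMM. Both libraries of heart 8 stood apart from the others of their layer. MiR-133a was 46623 RPMM in epicardium of heart 8 against 98728 and 92804 in hearts 6 and 7, and miR-10a was 3489 RPMM in mid-myocardium of heart 8 against 29064 and 25697. Results that rest on heart 8 are therefore given with and without it.

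No miRNA passed the adjusted threshold of 0.05 in limma with heart as a block. Of the 435 entries, 0 were called higher and 0 were called lower in mid-myocardium (0% of entries in each direction), and the smallest adjusted p was 0.881. At an unadjusted p under 0.05, 4 entries were higher (0.920% of those tested) and 11 were lower (2.53%). edgeR with the same block called 0 entries, with 20 at an unadjusted p under 0.05, and DESeq2 called 2, miR-10b and miR-100, both lower in mid-myocardium. The median log2 difference of all entries, mid-myocardium over epicardium, was 0.04, and the quartiles were -0.26 and 0.29. The median standard error was 0.34. No entry was higher in mid-myocardium by more than 1 on the log2 scale, and 17 were lower by more than that. In mid-myocardium of heart 6, the shallowest library, 17 of the 435 entries had no read, against 1 to 3 in each other library. The entries lower by more than 1 included miR-10b, miR-10a, miR-100 and miR-99b. These had at least 343, 3673, 219 and 582 reads, in that order, in each of the 6 libraries. Whether low reads had a part in the imbalance beyond 1 on the log2 scale was not tested. Among the 240 entries with 10 reads in each of the 6 libraries, 9 were higher and 9 lower at a limma unadjusted p under 0.05. After thinning to the smallest library, 13 were higher and 11 lower at that level. All values below are therefore levels and differences with their errors, and none of them passed the adjusted threshold unless stated.

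The sequences on which the layer differences turn are printed first, with the seed in capitals. They were read from the deposited exact mature sequences and matched to RefSeq on the rat build GRCr8. The miR-10 pair comes first because miR-10b had the smallest unadjusted p of all entries and because its annotated sequence was not the one that was sequenced.
miR-10b: cCCTGTAGaaccgaatttgtgt
miR-10b most common sequence: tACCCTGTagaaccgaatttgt
miR-10a: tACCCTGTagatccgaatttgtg
The annotated rat miR-10b-5p lies at chr3:80035886-80035907 on the plus strand and miR-10a-5p at chr10:81779730-81779752 on the plus strand. The most common miR-10b sequence started 2 nts upstream of the annotated one and ended 2 nts before its 3′ end. Its seed was therefore that of miR-10a and not that of the annotated miR-10b. The most common sequences of miR-10a and miR-10b differ at 1 base, T12A, counted from 1 at the 5′ end with the miR-10a base first.

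The next set shows the miR-99/100 group, which shares 1 seed, and miR-125a and miR-125b, which share another.
miR-99b: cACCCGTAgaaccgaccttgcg
miR-100: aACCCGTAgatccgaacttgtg
miR-99a: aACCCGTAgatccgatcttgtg
miR-125a: tCCCTGAGaccctttaacctgtga
miR-125b: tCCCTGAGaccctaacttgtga
MiR-99b-5p lies at chr1:67350070-67350091 and miR-125a-5p at chr1:67350689-67350712, with the let-7e hairpin between them at chr1:67350229-67350321. MiR-100-5p lies at chr8:50798307-50798328. MiR-100 and miR-99a differ at 1 base, A16T with the miR-100 base first, so a read with a mismatch at that base can be hard to place between them.

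The last set comes from the Dlk1-Dio3 region, and its 5 members have 5 different seeds.
miR-127: tCGGATCCgtctgagcttggct
miR-434: tTTGAACCatcactcgactcct
miR-410: aATATAACacagatggcctgt
miR-411: tAGTAGACcgtatagcgtacg
miR-541: aAGGGATTctgatgttggtcacact
On chromosome 6, miR-127-3p lies at chr6:134328510-134328531, miR-434-3p at chr6:134330451-134330472, miR-411-5p at chr6:134544604-134544624, miR-541-5p at chr6:134578434-134578458 and miR-410-3p at chr6:134579808-134579828, all on the plus strand.

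MiR-10b was the entry with the smallest unadjusted p. Its level in hearts 6, 7 and 8 was 3804, 2299.6 and 2970.0 RPMM in epicardium and 1208, 854 and 1562 RPMM in mid-myocardium. All 3 mid-myocardial levels were below all 3 epicardial levels. The layer means were 3024 ± 754 and 1208 ± 354 RPMM (SD, n = 3), a 2.50-fold higher mean in epicardium. The log2 difference was -1.34 with a standard error of 0.31 and a 95% interval from -2.11 to -0.57, at an unadjusted p of 0.00589 and an adjusted p of 0.881 in limma. The adjusted p was 0.0233 with limma-trend, which lets the variance follow the level, and 0.000126 in DESeq2, and it was 0.0176 in limma without heart 8. In edgeR with the block no adjusted p was below 0.0664. The smallest p of an exact permutation test over these libraries is 0.25 when layers are swapped within hearts and 0.1 when hearts are ignored, so single levels could not reach the threshold by that test.

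The makeup of miR-10b was alike in the 6 libraries. The most common sequence, which carries the miR-10a seed, made up 70.5%, 67.6% and 70.3% of miR-10b reads in epicardium and 69.1%, 70.8% and 69.9% in mid-myocardium. Only 1 read of the 10743 miR-10b reads in the 6 libraries was the annotated sequence itself. The miR-10b reads were spread over 134 different sequences. Among the single sequences, the most common one had 2683, 1555 and 2089 RPMM in epicardium and 835, 604 and 1092 RPMM in mid-myocardium.

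MiR-10a, which targets through the same seed as the most common miR-10b sequence, was far from level between the layers only in heart 8. Its levels were 34068, 23776 and 28171 RPMM in epicardium and 29064, 25697 and 3489 RPMM in mid-myocardium of hearts 6, 7 and 8. In hearts 6 and 7 the layers were close, with log2 differences of -0.23 and 0.11, and in heart 8 the difference was -3.01. The fitted log2 difference was -1.04 with a 95% interval from -2.69 to 0.60 and limma's unadjusted p of 0.168. Per 100 reads of miR-10a there were 11.2, 9.67 and 10.5 reads of miR-10b in epicardium, and 4.16, 3.32 and 44.8 in mid-myocardium. The mid-myocardial library of heart 8, lowest in miR-10a, was the highest of its layer in miR-10b.

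**Figure D1:**
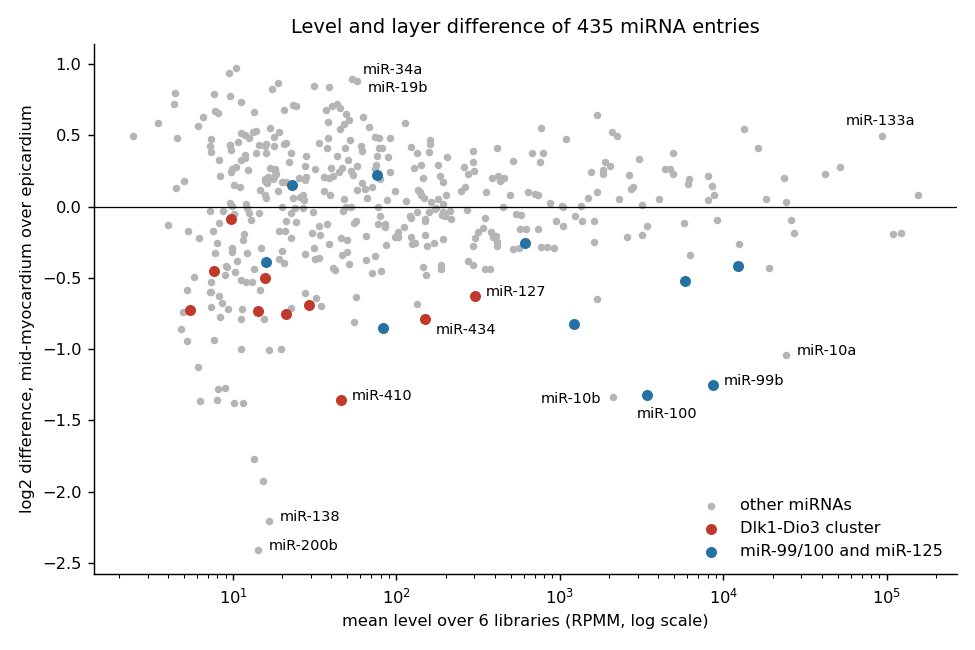
Each point is 1 of the 435 miRNA entries, with its mean level over the 6 libraries in RPMM on a log axis and its fitted log2 difference, mid-myocardium over epicardium, on the vertical axis. Red points are the 10 entries of the Dlk1-Dio3 cluster, all below 0, blue points the 10 entries of the miR-99/100 and miR-125 group, 8 of them below 0, and grey points the other entries.

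The Dlk1-Dio3 region is an imprinted domain whose many miRNAs are cut from transcripts of the maternal chromosome. Of the 44 miRNA names listed for it, 10 gave an entry that passed the read filter, each with 1 arm. Their hairpins lie on chromosome 6 between 134328454 and 134579838, a span of 251 kb, and no other entry tested had its rat hairpin within that span. All 10 had a log2 difference below 0, with a median of -0.71 against 0.04 for all entries. The difference was below 0 in all 3 hearts for 8 of the 10, against 13.1% of all entries, and the 3 mid-myocardial levels were below the 3 epicardial levels for 7 of the 10, against 4.60% of all entries. Members of a cluster are cut from shared transcripts and do not count as independent of each other. None was called by limma at the adjusted threshold, and 2 had an unadjusted p under 0.05, miR-410 and miR-541.

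MiR-127 was the most abundant of the cluster. Its levels were 359, 335 and 409 RPMM in epicardium and 229, 235 and 246 RPMM in mid-myocardium of hearts 6, 7 and 8. The layers did not overlap, and the mean was 1.55-fold higher in epicardium. On the log2 scale the difference was -0.63, with a standard error of 0.28 and limma's unadjusted p of 0.0712.

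MiR-434, whose gene is next to that of miR-127, had levels of 179, 232 and 151 RPMM in epicardium and 130.3, 70.4 and 131 RPMM in mid-myocardium. The layers did not overlap, but the size of the difference varied between hearts, from -0.21 in heart 8 to -1.71 in heart 7 on the log2 scale.

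MiR-410, at the other end of the span, had the largest difference of the cluster. Its levels were 66.0, 70.1 and 59.0 RPMM in epicardium and 14.1, 37.2 and 28.5 RPMM in mid-myocardium, with no overlap. The mid-myocardial level of heart 6 rested on 4 reads. The log2 difference was -1.36 with a standard error of 0.37, an unadjusted p of 0.0118 and an adjusted p of 0.881 in limma, and it was called in limma without heart 8, at -1.52 with an adjusted p of 0.0249.

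Levels of miR-411 were 29.8, 38.9 and 40.8 RPMM in epicardium and 21.1, 25.2 and 19.9 RPMM in mid-myocardium. MiR-541 had 12.8, 19.5 and 21.5 RPMM against 7.04, 11.9 and 12.3 RPMM, with an unadjusted p of 0.0437 in limma. The 3 differences of miR-541 were alike between hearts, at -0.78, -0.66 and -0.75 on the log2 scale, although its mid-myocardial level in heart 6 was 2 reads. MiR-409 and miR-381 also did not overlap between the layers, with log2 differences of -0.75 and -0.50. The remaining 3, miR-300, miR-341 and miR-136*, were at or below 13.3 RPMM in every library and overlapped.

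The cluster summed over its 10 entries was 712 to 763 RPMM in epicardium and 422 to 490.2 RPMM in mid-myocardium. Within hearts, the median difference of the 10 entries was -0.56, -0.63 and -0.71 on the log2 scale in hearts 6, 7 and 8, where that of all entries was 0.01, -0.16 and 0.23. The median of the cluster was thus below 0 and below that of all entries within each heart. The fitted median without heart 8 was -0.65. The other 34 names of the region had at most 17 reads each over the 6 libraries and 9 had no read. Together they had 34.1, 55.8 and 31.1 RPMM in epicardium and 24.6, 22.6 and 29.4 RPMM in mid-myocardium of hearts 6, 7 and 8. In bulk tissue, fewer cells of a type that makes these RNAs and less of the RNA per cell cannot be told apart.

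**Figure D2:**
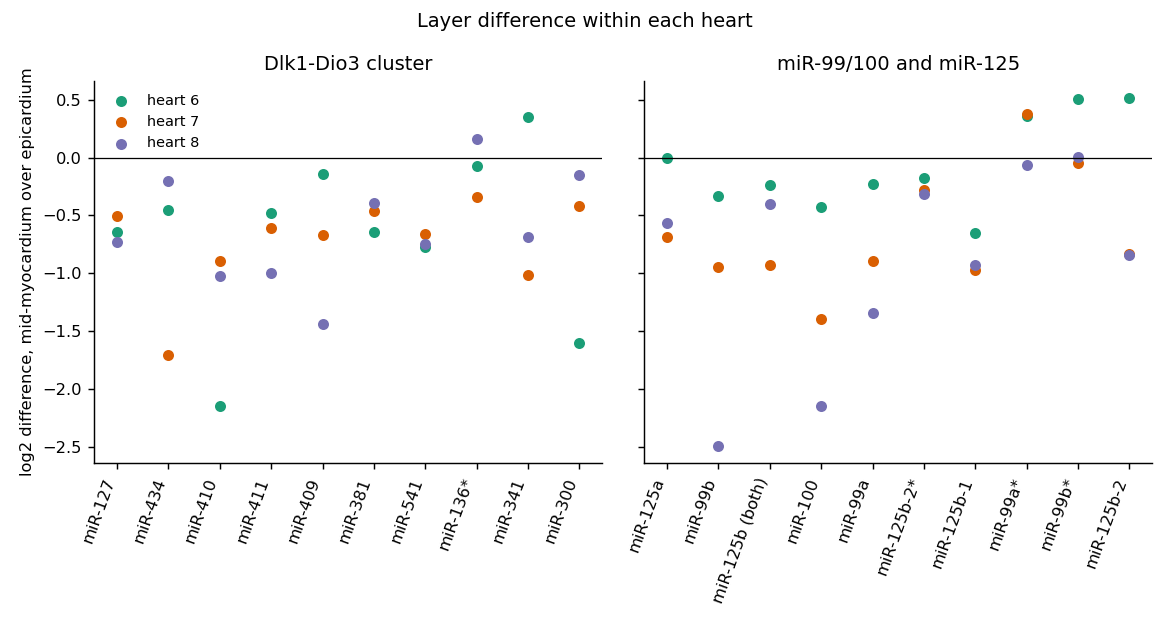
The log2 difference, mid-myocardium over epicardium, is shown within each heart for the 10 entries of the Dlk1-Dio3 cluster and the 10 entries of the miR-99/100 and miR-125 group, ordered by reads from left to right. In the cluster, 28 of the 30 points lie below 0, and in the other group the points of heart 6 lie nearer 0 than those of hearts 7 and 8 for miR-125a, miR-99b, miR-100 and miR-99a.

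The miR-99/100 and miR-125 group had lower levels in mid-myocardium in most entries, by amounts that depended on the heart. These miRNAs are cut from precursors that also hold let-7 hairpins. Of 10 entries, 7 were below 0 in all 3 hearts, against 13.1% of all entries. The mid-myocardial levels lay below without overlap for 1 of the 10, miR-125b-2*, against 4.60% of all entries. The median log2 difference was -0.47. Without heart 6 it was -0.75 and without heart 7 it was -0.30.

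MiR-100 had 1036, 7258 and 7058 RPMM in epicardium and 771, 2765 and 1596 RPMM in mid-myocardium of hearts 6, 7 and 8. Heart 6 was low in both layers, so the layers overlapped although each heart had the lower level in mid-myocardium. The log2 difference was -1.32 with a standard error of 0.41, an unadjusted p of 0.0202 and an adjusted p of 0.881 in limma. DESeq2 called it, at an adjusted p of 0.0181.

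MiR-99b had 2573, 15063 and 20704 RPMM in epicardium and 2049, 7825 and 3681 RPMM in mid-myocardium. On the log2 scale its layers differed by -0.33, -0.94 and -2.49 in the same order of hearts. The fitted value was -1.25 with a standard error of 0.48 and limma's unadjusted p of 0.0423, and it was -0.64 without heart 8.

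MiR-99a had 744, 2093 and 1973 RPMM in epicardium and 634, 1127 and 775 RPMM in mid-myocardium, a log2 difference of -0.82 with a standard error of 0.34. Reads that fitted both miR-125b genes had 4176, 10179 and 6513 RPMM in epicardium and 3539, 5357 and 4928 RPMM in mid-myocardium. MiR-125a, the most abundant of the group, had 5616, 23689 and 14512 RPMM against 5609, 14713 and 9792 RPMM. In heart 6 the levels of miR-125a differed between the layers by under 0.01 on the log2 scale, and the 95% interval of its fitted difference, from -1.19 to 0.35, included 0.

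The let-7 family, some of whose hairpins lie beside those of this group, had values mostly above 0. Let-7e, chosen here after its values were seen because its hairpin lies between miR-99b and miR-125a, had 851, 563 and 464 RPMM in epicardium and 683, 636 and 632 RPMM in mid-myocardium, a log2 difference of 0.10 with a 95% interval from -0.67 to 0.88. Of the 22 entries of let-7 and miR-98, 20 had a log2 difference above 0, with a median of 0.27, and 4 were higher in all 3 hearts, against 13.8% of all entries. In heart 6 alone 11 were higher and 11 lower, and the median without heart 8 was 0.10. The star arms miR-99a* and miR-99b* had log2 differences of 0.22 and 0.15, with 95% intervals that included 0.

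**Figure D3:**
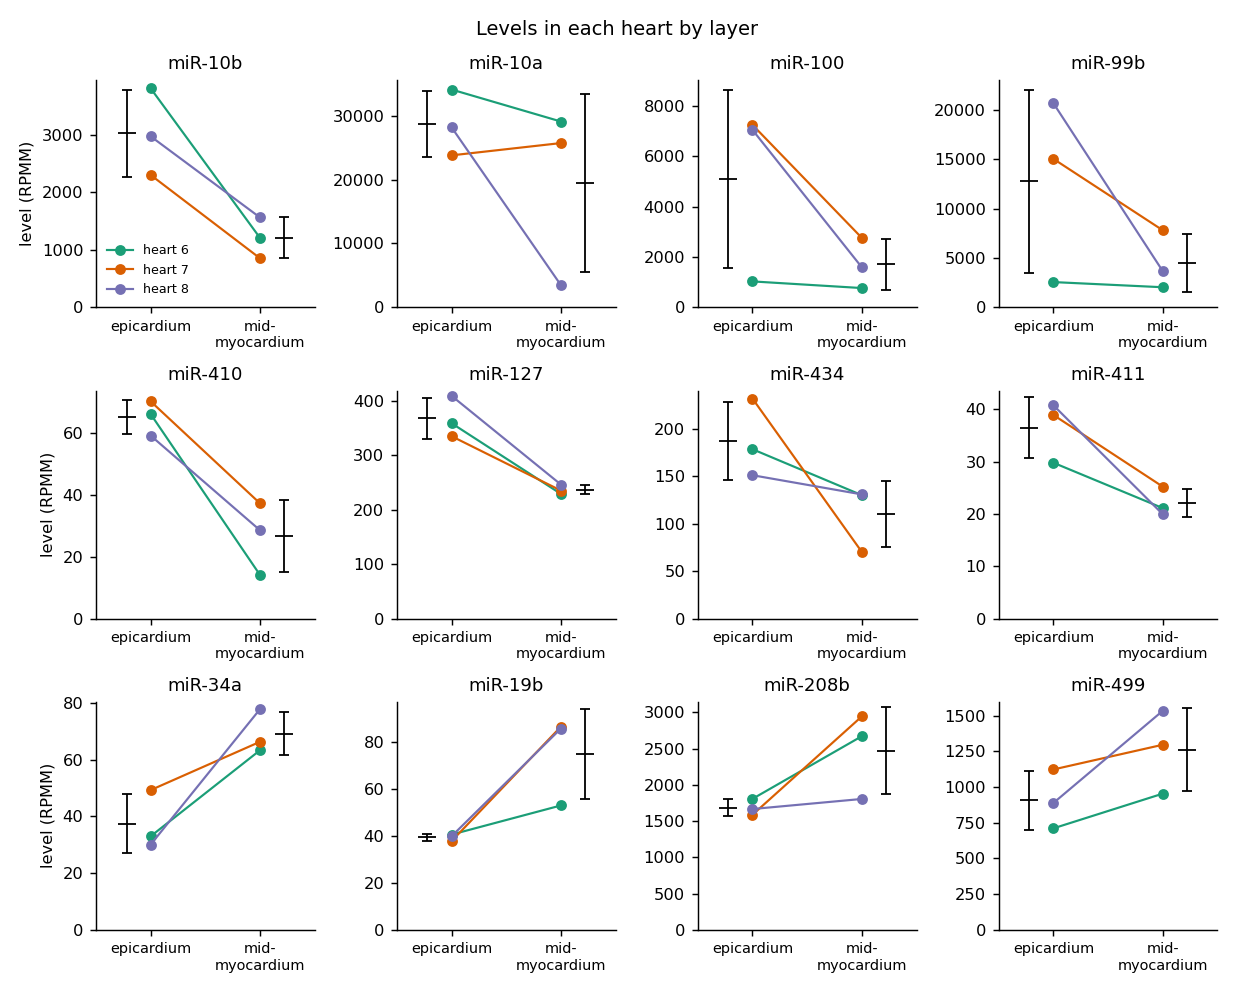
The level in RPMM of 12 miRNAs is shown in epicardium and mid-myocardium, with a line for each heart (6 green, 7 orange, 8 purple) and the mean ± SD of the 3 hearts in black beside each layer. MiR-10b, miR-410, miR-127, miR-434 and miR-411 do not overlap and are lower in mid-myocardium, miR-34a and miR-19b do not overlap and are higher, and the miR-10a line is steep only in heart 8.

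Differences towards mid-myocardium were under 1 on the log2 scale in every entry. In all 3 hearts 60 entries were higher (13.8% of those tested) and 57 lower, and 19 entries did not overlap with mid-myocardium above (4.37%) against 20 with it below.

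MiR-34a, a miRNA induced by p53, had 33.0, 49.3 and 30.1 RPMM in epicardium and 63.4, 66.4 and 77.9 RPMM in mid-myocardium. The layers did not overlap, and they differed by 0.90 on the log2 scale, with a standard error of 0.32 and a limma unadjusted p of 0.0349. MiR-34c, which has the same seed, had 38.3, 35.0 and 20.4 RPMM against 49.3, 49.1 and 51.3 RPMM and did not overlap either.

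MiR-19b, a member of the miR-17-92 cluster, had 40.4, 37.6 and 39.7 RPMM in epicardium and 52.8, 86.3 and 85.5 RPMM in mid-myocardium. The layers did not overlap, and the log2 difference was 0.88 with a standard error of 0.32 and a limma unadjusted p of 0.0355. MiR-106b, from a related cluster, and miR-185 were also higher without overlap, by 0.68 and 0.61 on the log2 scale. Other miRNAs of these families went the other way, with log2 differences of -0.09 for miR-92a-1 and -0.44 for miR-92a-2. Of the 12 entries of the endothelial list given below, which holds members of the miR-17-92 cluster, 7 were above 0 and 5 below. MiR-143*, the minor arm of the smooth muscle miRNA miR-143, had 13.8, 13.0 and 9.66 RPMM against 17.6, 19.9 and 30.4 RPMM, while miR-143 itself had a log2 difference of -0.19. MiR-1983, an entry of mouse, belongs to the list given below of entries known to match pieces of tRNA or rRNA. It had a log2 difference of 0.84 with an unadjusted p of 0.0462 in limma and overlapped between layers.

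Muscle miRNAs were not separated by layer. Of 9 entries of cardiac and skeletal muscle, 8 had a log2 difference above 0, the median was 0.27, or 0.18 without heart 8, 3 were higher in all hearts (13.8% of all entries were) and none was without overlap. Those 3 were miR-208b, miR-499 and miR-208, which are cut from introns of myosin heavy chain genes. MiR-208b had 1807, 1587 and 1667 RPMM in epicardium and 2673, 2946 and 1806 RPMM in mid-myocardium, with a log2 difference of 0.52 and a 95% interval from -0.25 to 1.30. MiR-499 had 711, 1124 and 889 RPMM against 954, 1297 and 1535 RPMM, with a log2 difference of 0.47. MiR-133a was nearly level in hearts 6 and 7, with log2 differences of -0.03 and 0.03, and its difference was 1.48 in heart 8. MiR-1 had a log2 difference of 0.27 with a 95% interval from -0.57 to 1.10.

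Other miRNAs lower in mid-myocardium were at low levels. MiR-425* had 11.7, 15.6 and 11.8 RPMM in epicardium and 7.04, 3.98 and 3.80 RPMM in mid-myocardium, which is 2 to 4 reads per mid-myocardial library. Epicardium alone therefore took miR-425* past the read filter. MiR-138, known from brain, had 23.4, 35.0 and 17.2 RPMM in epicardium and 15.9 and 8.55 RPMM in mid-myocardium of hearts 7 and 8. It had no read in mid-myocardium of heart 6, where 3 reads would be 10.6 RPMM. Its log2 difference of -2.21 depended on the pseudocount for that reason and ranged from -3.34 to -1.01 over the alternatives.

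MiR-200b, an epithelial miRNA, had 7.45, 57.1 and 9.66 RPMM in epicardium and 0, 2.66 and 8.55 RPMM in mid-myocardium. The layers overlapped, and most of its reads were 44 reads in epicardium of heart 7. The log2 difference was -2.41 with a standard error of 0.75 and a limma unadjusted p of 0.0205. It was called after all libraries were thinned to the depth of the smallest, and in limma without heart 8. Only epicardium of heart 7 took it past the read filter, so these calls rest on that library. MiR-1271, an entry of horse, had 1.06, 31.1 and 45.1 RPMM against 0, 10.6 and 3.80 RPMM, and it passed the read filter through epicardium alone.

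The neural list, which holds miRNAs of neurons and glia, had 8 entries with a median log2 difference of -0.55. The median was -0.28 without heart 8, and it was 0.08 over the entries with 10 reads in each of the 6 libraries. Of these, 4 were lower in all hearts, miR-138, miR-132, miR-9 and miR-338, and miR-138 and miR-132 did not overlap, where 13.1% of all entries were lower in all hearts and 4.60% lay below without overlap. MiR-132 had 38.3, 37.6 and 30.1 RPMM in epicardium and 21.1, 29.2 and 16.1 RPMM in mid-myocardium. MiR-128 went the other way, at 99.0, 235 and 91.2 RPMM against 127, 239 and 157 RPMM. The summed level of the list was 467 to 718 RPMM in epicardium and 401 to 669 RPMM in mid-myocardium, and the neuronal miR-124 was nearly absent, at 1 read in mid-myocardium under that name and 2 reads in epicardium as miR-124a.

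**Figure D4:**
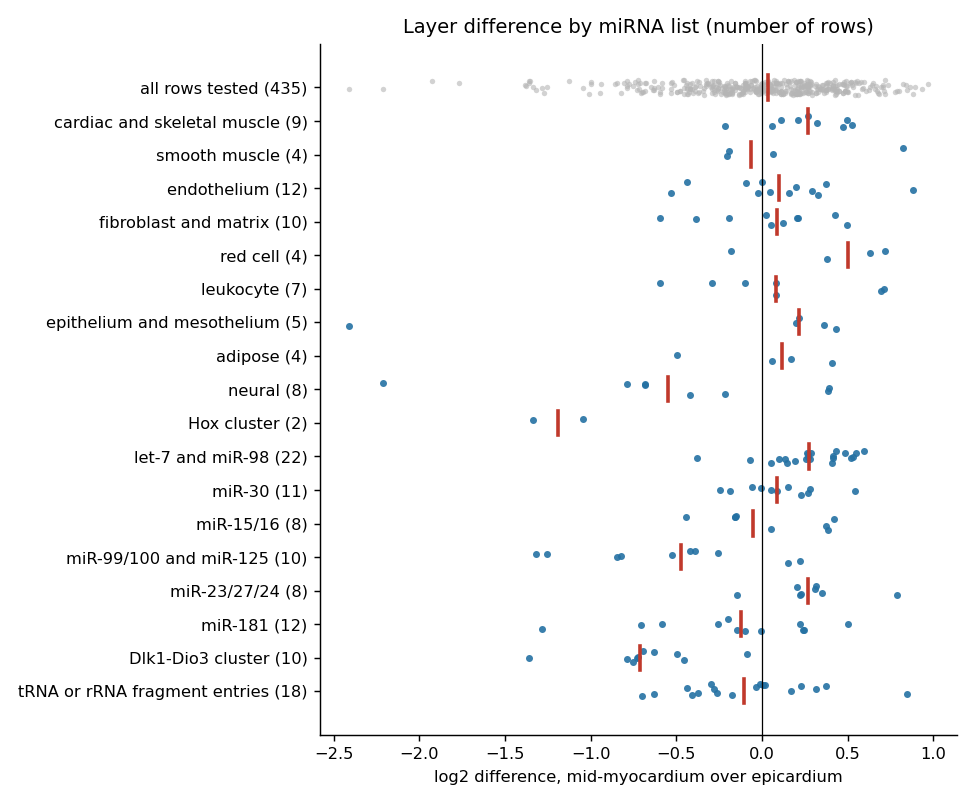
Each point is the log2 difference, mid-myocardium over epicardium, of 1 entry, by list, with the number of entries in brackets and the median as a red bar. The medians of the Dlk1-Dio3 cluster (-0.71), the neural list (-0.55, but -0.28 without heart 8) and the miR-99/100 and miR-125 group (-0.47) lie below 0, the 2 entries of the Hox cluster list are miR-10b and miR-10a, and the outermost points, at -2.41 and -2.21, are miR-200b and miR-138.

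Markers of other cell types were measured in both layers, and their summed levels overlapped. MiR-143 and miR-145 of smooth muscle summed with their minor arms to 97508 to 154732 RPMM in epicardium and 91689 to 125466 RPMM in mid-myocardium, with a median log2 difference of -0.06 over 4 entries. The endothelial list of 12 entries had a median of 0.10 and sums of 22144 to 25825 against 20002 to 26554 RPMM, and miR-126 itself had a log2 difference of 0.16. The fibroblast and matrix list of 10 entries had a median of 0.09 and sums of 10085 to 17493 against 13669 to 16275 RPMM, but its miR-199a had 2103, 2107 and 1417 RPMM in epicardium and 2447, 2707 and 2677 RPMM in mid-myocardium, without overlap. MiR-21, another member, had a log2 difference of 0.12 with a 95% interval from -0.69 to 0.93.

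The miRNAs of the red cell and leukocyte lists were present in both layers. The paper cites work that found miR-486 enriched in heart and skeletal muscle, so its level here is not specific to red cells. The red cell list of 4 entries had a median log2 difference of 0.50, or 0.34 without heart 8. Of its entries, 3 were above 0 and 1 below. The list summed to 108088 to 157543 RPMM in epicardium and 90575 to 132874 RPMM in mid-myocardium. Nearly all of that sum was miR-486, counted here under its cow entry alone, with a log2 difference of -0.18. MiR-451 and miR-144* had log2 differences of 0.38 and 0.72. MiR-144 of the same list was higher in all 3 hearts, by 0.63 on the log2 scale. The leukocyte list of 7 entries had a median of 0.08 and sums of 7043 to 13575 against 8995 to 11867 RPMM. The 5 entries of the epithelium and mesothelium list summed to 77.3 to 117 RPMM in epicardium and 65.1 to 95.9 RPMM in mid-myocardium, with a median log2 difference of 0.22, or -0.45 without heart 8. The miRNAs taken as markers of a surface epithelium were few in both layers, miR-31 had 1.07 to 14.3 RPMM in epicardium, and miR-200a, miR-429 and miR-205 had 8 to 20 reads each over the 6 libraries. Whether the share of any cell type had a part in the differences of the Dlk1-Dio3 cluster or of miR-10b was not tested.

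The remaining lists had medians between -0.12 and 0.27. Adipose miRNAs (4 entries) had a median of 0.12, the miR-30 family (11 entries) 0.09, the miR-15/16 family (8 entries) -0.05, the miR-181 family (12 entries) -0.12 and the miR-23/27/24 family (8 entries) 0.27. Entries known to match pieces of tRNA or rRNA (18 entries) had a median of -0.10, made of -0.51 and -0.42 in hearts 6 and 7 and 0.76 in heart 8.
The most abundant miRNAs had differences close to 0. MiR-22, the most abundant, was 135275 to 159351 RPMM in epicardium and 134285 to 185035 RPMM in mid-myocardium, with a log2 difference of 0.08 and a 95% interval from -0.68 to 0.84. The other entries among the 10 most abundant that are not given above, miR-26a, miR-30a, miR-30d, miR-181a and miR-378, had log2 differences between -0.18 and 0.27.

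The comparison was repeated on single sequences. Of the 559 sequences whose layer mean reached 100 RPMM in epicardium or mid-myocardium, limma called 0, with a smallest adjusted p of 0.162. At an unadjusted p under 0.05 there were 40 sequences lower in mid-myocardium (7.16% of those tested) and 1 higher (0.179%), and edgeR called 0 with 43 at that level. Of the 41, 7 belonged to miR-99b (9 tested) and 5 to miR-100 (5 tested). Another 4 each belonged to miR-10b (4 tested), miR-191 (8 tested), miR-125b (10 tested) and miR-10a (14 tested). Sequences of 1 miRNA do not count as independent of each other. The sequence with the smallest p was a miR-10b isomiR of 23 nts, 1 longer at its 3′ end than the most common one, with 208, 167 and 204 RPMM in epicardium and 42.3, 65.0 and 93.1 RPMM in mid-myocardium. A miR-208b sequence of 22 nts had the smallest p of those higher in all hearts, at 953, 741 and 765 RPMM against 1369.8, 1630.3 and 1002 RPMM, with a limma unadjusted p of 0.0569.

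The share of reads that matched the mature sequence exactly was compared in 79 entries. Limma called 0, with 3 at an unadjusted p under 0.05 and a fitted value above 0 (3.80%). One of these was miR-10b, which gives no direction, because its only exact read was in epicardium of heart 6 and its fitted value came from the offset and the depth. The other 2 were miR-99a and miR-490. In miR-99a the exact share was 51.4%, 20.2% and 25.7% in epicardium and 52.8%, 35.9% and 45.3% in mid-myocardium of hearts 6, 7 and 8. The layers overlapped, and heart 6 had the higher share in both.

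Classes and lengths of reads overlapped between the layers except where stated. Reads without annotation were 42.7% ± 0.597 of all reads in epicardium and 39.3% ± 5.92 in mid-myocardium (SD, n = 3), with p = 0.5 in the exact permutation test within hearts, two-sided. Rat entries took 47.7% ± 1.32 and 51.5% ± 4.38 of all reads. Reads of 22 nts were 28.2% ± 1.35 and 30.6% ± 2.29 of all reads, higher in mid-myocardium in 3 of 3 hearts, at p = 0.25, the smallest that the exact permutation test within hearts can give. Of the annotated reads alone they were 46.9% ± 1.98 and 48.3% ± 1.64, with the lower share in mid-myocardium in heart 7 and p = 0.75 in the same exact test. The other shares at p = 0.25 in that exact test were annotated reads under 20 nts, at 2.52% ± 0.274 and 2.22% ± 0.214, and annotated reads longer than the mature sequence, whose share was 1.05 percentage points higher in mid-myocardium. In all, 16 shares were compared. Exact mature reads were 35.8% ± 1.90 and 36.6% ± 2.81 of the annotated reads.

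Of 10181 sequences without annotation, edgeR with the block called 0, with 82 higher (0.805%) and 147 lower (1.44%) at an unadjusted p under 0.05, and DESeq2 called 0 with 102 at that level. The most abundant sequence among those with the smallest p was 17 nts long and is printed because it alone took up to several percent of the deposited reads of a library.
unannotated: cgcgacctcagatcaga
It had 7390, 9309 and 54554 reads per 1000000 deposited reads of all kinds in epicardium and 6535, 2951 and 5559 in mid-myocardium. Its level in epicardium of heart 8 was far above the other 5 libraries. The log2 difference was -1.71 with an adjusted p of 0.396 in edgeR. Without heart 8 it was -0.92 with an adjusted p of 0.498, and without heart 6 it was -2.48 with an adjusted p of 0.0405.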

How the data were processed

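Small RNA of each layer was made into TruSeq libraries, 1 per layer and heart, and the authors aligned the trimmed reads to miRBase v18 with CLC Genomics Workbench 4.0. The genome build of the alignment is not given in the sources used here. The authors deposited each annotated sequence as RPM over the annotated reads of its library, named RPMM, and each unannotated sequence as a raw count of reads. A grouped table that the authors also deposited was not used. Whole reads were recovered from 100% of 125689 RPMM values within a tolerance of 0.01 reads. The design had set limma on RPMM, and the count tests on recovered reads are alternatives.

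Entries were tested with limma 3.58.1 (lmFit, eBayes) on log2(RPMM + 1), with heart as a block and Benjamini-Hochberg adjustment at 0.05. Fold values on that scale understate the differences of low entries. Entries needed 10 reads in at least 1 of 6 libraries, single sequences a mean of 100 RPMM in either layer, and exact shares 100 reads in each library with an offset of 0.5. Unannotated counts, which were filtered at 10 reads in at least 1 library, were tested with edgeR 4.0.16. DESeq2 1.42.0 was an alternative. Shares of reads carry exact two-sided permutation tests. Scripts were tested on simulated data, in R 4.3.3 and Python 3.11.15 with scipy 1.17.1.

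The pairing comes from the heart number, since each heart gave all 3 layers. Deviations from the layer means over 435 entries correlated within hearts at 0.34, 0.12 and -0.03 in hearts 6, 7 and 8. Between layers of different hearts they correlated at -0.34 to 0.26, so only heart 6 was above every value between hearts. No pair of libraries of a layer agreed within sampling noise. Each library is 1 layer of 1 animal. P-values with heart as a block rest on the layer differences of 3 animals, and limma draws the variance of each entry towards that of all entries. The 95% intervals come from the limma fit over the libraries. Floors from read numbers cover counting error only, because the reads carry no molecular identifiers.

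The miRNAs named were the 10 in each direction with the smallest p among those of the same sign in 3 hearts and with at least 10 RPMM in the higher layer, the 10 most abundant, up to 4 of each list by reads, and miR-10b, miR-21, miR-99b, miR-486, miR-410, miR-338, miR-200b and miR-31. Other names were chosen after their values were seen, and they complete a list or stand beside a named miRNA. A list holds the rat entries of its names, or the entry of another species with the most reads. The comparison, members and lists were chosen with earlier results of these data known. Endocardium entered only 1 alternative fit.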

Additional observations from a re-analysis of the deposited data

How the results depend on the processing

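The alternatives covered the block, scaling, pseudocount, filters, grouping, thinning, other tests and each heart left out. Those that leave out a heart drop both its layers, which leaves 2 pairs. The limma count of 0 miRNAs lower in mid-myocardium became 1 with limma-trend (miR-10b), 2 in DESeq2 with the block (miR-10b and miR-100) and 1 after thinning to 283991 reads (miR-200b). Over hearts left out it ranged from 0 to 13, with the 13 calls without heart 8, of which 5 were rat entries (miR-10b, miR-138, miR-181b-1, miR-200b and miR-410). The count of miRNAs higher was 0 under every alternative. Without the replicate block limma called 0 higher and 0 lower, with 10 at an unadjusted p under 0.05, and edgeR called 0 without the block and 0 with it. The block changed no call in limma or edgeR. TMM normalization moved the median of all entries from 0.04 to -0.03 on the log2 scale.

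Single sequences were called 0 to 1 times higher and 0 to 15 times lower over hearts left out, with 15 lower without heart 6 and 11 without heart 8. Exact shares gave 0 to 2 calls higher, both without heart 8, where they were miR-10b and a mouse entry with almost no exact read. A filter of 10 exact and 10 other reads in each library, chosen after seeing the data, gave 0 calls. Unannotated sequences gave 0 to 5 calls higher and 0 to 18 lower. The 1 lower without heart 6 was the printed sequence of 17 nts, and 14 of the 23 called without heart 8 shared their last 12 nts. Whether those 14 sequences are RNAs of the heart or come from the library preparation was not tested. The cause of the changes in the number of calls was not tested either.

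Of the 88 miRNAs named, 59 had the same sign under each alternative that gave them a value. The 20 named for a small p are among them by their choice, since they had 1 sign in all hearts. The Dlk1-Dio3 median stayed between -0.80 and -0.48 over 19 alternatives. MiR-10b was between -1.54 and -1.18, and its adjusted p between 0.000126 and 0.978. Depth limits miR-410, miR-425*, miR-138 and miR-200b, which had 0 to 4 reads in mid-myocardium of heart 6.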
